A study of Mus musculus with 30 samples.

Results

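Regions where a Jun protein and a nuclear receptor were listed together, without a Krüppel-like factor, were described in 3T3-L1 cells, a mouse fibroblast line used as a model of fat cell formation. A region was taken when the identical interval stood in the cJun or the JunB list and in the VDR or the RXR list, and in neither the KLF4 nor the KLF5 list. There were 1411 such regions among 34724 intervals on chromosomes 1 to 19 and X. Jun and receptor regions that carried KLF4 or KLF5 numbered 5456, so that 20.5% of all 6867 Jun and receptor regions lacked a KLF. The regions were thus selected on their presence in the cJun, JunB, VDR and RXR lists and their absence from the KLF4 and KLF5 lists, and the values of those 6 lists are given as a description.

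The cells were pre-adipocytes past confluence, harvested 4 h after their differentiation had been induced, and all 9 factors had 1 chromatin immunoprecipitation sequencing (ChIP-seq) library each. The induction cocktail held insulin at 1 μg/mL, 10% FCS, dexamethasone (a synthetic glucocorticoid) at 1 μM and the phosphodiesterase inhibitor 3-isobutyl-1-methylxantine at 0.5 mM. None of the 9 lists came from uninduced cells, so the regions describe 1 state of 1 cell line. The labels do not say which RXR isoform was precipitated. The deposited lists hold positions only, each interval being 400 bp long in the mouse build mm9, and listing or non-listing is the only measurement per factor. The lists hold no read numbers, and library depth is unknown. Absence from a list means only that the interval was not listed for that factor, which cannot be told apart from a weak signal. The 9 lists draw on 1 common set of intervals, and the making of that set is not described in the labels. Below, all intervals means every interval in at least 1 of the 9 lists. The share of a factor among them therefore includes intervals that are there only because that factor was listed. Such a share is a reference within these lists and not a genome-wide background. No mm9 genome was used here, and no sequence, motif or gene is given for a region.

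cJun and JunB are subunits of AP-1, a family of bZIP dimers that bind DNA together with other Jun, Fos or ATF proteins. FOSL2 is a Fos-family partner that does not form stable dimers with itself and pairs with Jun proteins. ATF2 and ATF7 are closely related bZIP factors that can dimerize with each other and with cJun. VDR, the vitamin D receptor, binds DNA mainly as a heterodimer with RXR, the retinoid X receptor, which also partners many other nuclear receptors. KLF4 and KLF5 are zinc-finger factors that bind GC-rich and CACCC-type elements and have roles early in adipogenesis.

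Regions without a KLF mostly held a single receptor. RXR without VDR was listed at 527 of the 1411 regions (37.3%, exact 95% interval 34.8 to 39.9), VDR without RXR at 447 (31.7%, 29.3 to 34.2) and the pair at 437 (31.0%, 28.6 to 33.5). Among regions with a KLF, the receptor pair was present at 75.9% (74.7 to 77.0), RXR without VDR at 15.0% and VDR without RXR at 9.15%. Put the other way, a KLF was missing at 42.5% of Jun regions with 1 receptor (974 of 2290) and at 9.55% of Jun regions with VDR and RXR (437 of 4577). These shares come from the lists that define the regions and carry no test. Over all intervals, RXR was listed at 34.8% and VDR at 34.0%, a single receptor at 23.2% and the pair at 22.8%. A single receptor stood at 69.0% of the regions without a KLF. It stood at 80.4% (3528 of 4386) of receptor regions without Jun or KLF, so this make-up was not particular to regions with a Jun.

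JunB was the more frequent Jun. It was listed at 1202 of the 1411 regions (85.2%), and cJun at 789 (55.9%). All intervals had 29.0% and 17.8%, but the rule requires a Jun, so the shares here are raised by the selection. Among other sets that require a Jun, JunB and cJun stood at 90.8% and 67.3% of Jun and receptor regions with a KLF. They stood at 86.8% and 37.2% of Jun regions without receptor or KLF. JunB without cJun was present at 622 regions (44.1%), both Jun proteins at 580 (41.1%) and cJun without JunB at 209 (14.8%). Regions with a KLF had both Jun proteins at 58.2%, JunB without cJun at 32.7% and cJun without JunB at 9.18%. The JunB list is the longer of the 2, with 10082 intervals against 6176 for cJun.

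The receptors were spread almost evenly over the regions that held cJun. Of the 580 regions with both Jun proteins, 190 held RXR without VDR, 194 held VDR without RXR and 196 held the receptor pair. Of the 209 regions with cJun without JunB, 73 held RXR without VDR, 69 held VDR without RXR and 67 held the pair. JunB without cJun went more often with RXR alone: 264 of 622 regions (42.4%, 38.5 to 46.4) held RXR without VDR, 184 (29.6%, 26.0 to 33.3) VDR without RXR and 174 (28.0%, 24.5 to 31.7) the pair. Read from the receptors, JunB without cJun made up 50.1% of the regions with RXR alone (45.7 to 54.4), 41.2% of those with VDR alone (36.6 to 45.9) and 39.8% of those with both (35.2 to 44.6). With a KLF, JunB without cJun also held RXR alone (21.2%) more often than VDR alone (11.8%), but the pair most often (67.1%). There it made up 46.1% of regions with RXR alone, 42.1% with VDR alone and 28.9% with both. The lean to RXR alone over VDR alone was thus not particular to regions without a KLF.

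Regions with a KLF showed another make-up. All 4 proteins, cJun, JunB, VDR and RXR, were listed together at 196 of the 1411 regions without a KLF (13.9%, 12.1 to 15.8) and at 2556 of the 5456 with a KLF (46.8%, 45.5 to 48.2). The most frequent combination without a KLF was JunB and RXR without cJun or VDR, at 18.7% (16.7 to 20.8), against 6.91% (6.25 to 7.62) with a KLF. A KLF was missing most often where cJun and 1 receptor were listed without JunB, at 57.5% for RXR (73 of 127, 48.4 to 66.2) and 54.3% for VDR (69 of 127, 45.3 to 63.2). It was missing least often where all 4 proteins met, at 7.12% (196 of 2752, 6.19 to 8.15).

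**Figure D1:**
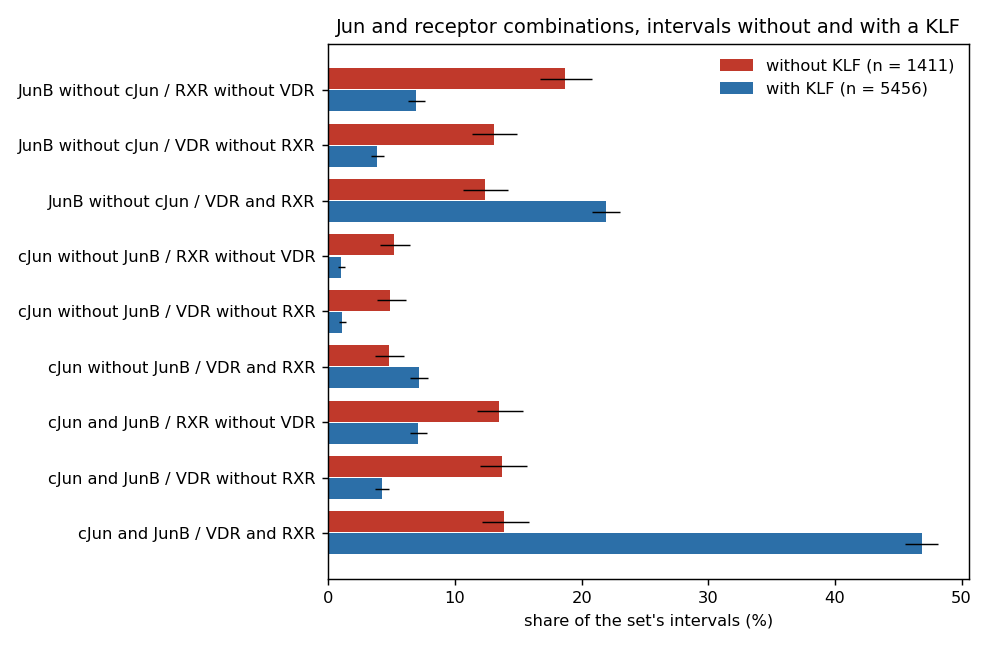
Horizontal bars give the share (%) of intervals in each of the 9 combinations of Jun and receptor, for Jun and receptor regions without a KLF (red) and with a KLF (blue); lines are exact 95% intervals. The blue bar for all 4 proteins together reaches 46.8%, while no red bar exceeds 18.7%.

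The lists of FOSL2, ATF2 and ATF7 were not used to choose the regions. FOSL2 was listed at 269 of the 1411 regions without a KLF (19.1%, 17.0 to 21.2), near its share of all intervals, 18.1%, and at 1939 of the 5456 with a KLF (35.5%, 34.3 to 36.8). The difference was -16.5 percentage points (Newcombe 95% interval -18.8 to -14.0). ATF2 was listed at 270 regions without a KLF (19.1%), against 40.5% with a KLF and 33.3% of all intervals, a difference of -21.4 points (-23.7 to -18.9). ATF7 was listed at 177 (12.5%), against 31.3% with a KLF and 21.2% of all intervals, a difference of -18.7 points (-20.8 to -16.5). At least 1 of ATF2 and ATF7 was listed at 318 (22.5%), against 45.9% with a KLF and 40.5% of all intervals, a difference of -23.4 points (-25.9 to -20.8).

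With 1 library per factor, no test between replicates could be made, and all intervals cover counting error only. Regions on 1 chromosome are also not independent cultures. The direction was looked at chromosome by chromosome: regions without a KLF had the lower share of ATF2 or ATF7 on 20 of 20 chromosomes and the lower share of FOSL2 on 18 of 20. The exceptions for FOSL2 were chromosome 18, with 26.9% of 52 regions without a KLF and 24.0% of 150 with a KLF, and chromosome X, with 3 of 36 and 6 of 83 regions. FOSL2 was scarce on chromosome X in general, with 48 of 670 intervals (7.16%) listed.

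Because the regions without a KLF held fewer Jun and receptor entries, the comparison was repeated within the 9 combinations of cJun, JunB, VDR and RXR. FOSL2 was lower without a KLF in 9 of 9 combinations, and so was ATF2 or ATF7. The Mantel-Haenszel odds ratio over the combinations was 0.475 for FOSL2 (95% interval 0.406 to 0.556), 0.398 for ATF2 (0.341 to 0.464), 0.388 for ATF7 (0.324 to 0.464) and 0.394 for either ATF (0.341 to 0.457). With the combinations weighted as in the regions without a KLF, the differences were smaller, -13.2 points for FOSL2 (-15.8 to -10.5) and -18.7 points for either ATF (-21.6 to -15.9). Against the 2439 regions that carried KLF5 without KLF4, the unweighted differences were -10.3 points for FOSL2 (-13.0 to -7.56) and -16.4 points for either ATF (-19.3 to -13.5). Against the 3017 regions that carried KLF4, they were -21.4 points (-24.1 to -18.7) and -29.1 points (-31.8 to -26.2). Of those 3017 regions, 2888 also carried KLF5. The 129 with KLF4 without KLF5 had FOSL2 at 30.2% (22.5 to 38.9) and an ATF at 34.9% (26.7 to 43.8), near the 29.4% and 39.0% of the regions with KLF5 without KLF4.

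Jun and receptor regions without a KLF, with FOSL2 at 19.1% and an ATF at 22.5%, stood nearer to regions with only a Jun than to regions with only a receptor. The 3237 regions with a Jun but no receptor or KLF carried FOSL2 at 23.0% and an ATF at 20.3%. The Jun and receptor regions without a KLF differed from them by -3.92 points for FOSL2 (-6.38 to -1.36) and by 2.21 points for an ATF (-0.329 to 4.84, an interval that holds 0). These differences were not weighted, and both Jun proteins stood at 41.1% of the former and 24.0% of the latter. FOSL2 was at 26.6% against 34.4% with both Jun proteins, 17.4% against 21.5% with JunB without cJun, and 3.35% against 9.11% with cJun without JunB. An ATF was at 27.4% against 30.2%, 22.8% against 18.9% and 8.13% against 9.35%. The 4386 regions with a receptor but no Jun or KLF carried FOSL2 at 2.78% and an ATF at 12.7%. Jun and receptor regions without a KLF exceeded these by 16.3 points for FOSL2 (14.2 to 18.5) and by 9.84 points for an ATF (7.50 to 12.3).

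**Figure D2:**
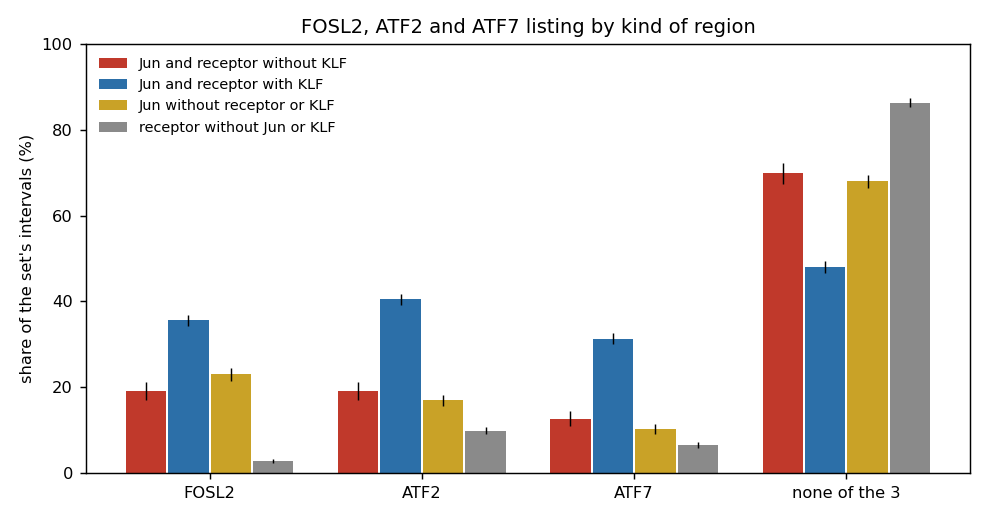
Bars give the share (%) of intervals listed for FOSL2, ATF2, ATF7 or none of these 3 factors in 4 kinds of region, with exact 95% intervals as lines. Jun and receptor regions without a KLF (red) stand at 19.1% for FOSL2 and 69.9% for none of the 3, close to Jun regions without receptor or KLF (yellow, 23.0% and 68.0%) and apart from Jun and receptor regions with a KLF (blue, 35.5% and 48.1%).

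None of the 3 was listed at 986 of the 1411 regions without a KLF (69.9%, 67.4 to 72.3), against 48.1% with a KLF and 52.3% of all intervals. FOSL2 alone of the 3 stood at 107 regions (7.58%), ATF2 alone at 74 (5.24%) and ATF7 alone at 30 (2.13%). All 3 stood at 77 regions (5.46%, 4.33 to 6.77), near the 6.01% of all intervals and below the 19.2% (18.2 to 20.3) with a KLF. Where FOSL2 was listed, an ATF was listed at 162 of 269 regions (60.2%), and where it was not, at 13.7%, a difference of 46.6 points (40.2 to 52.5). An ATF was listed at 60.3% of all FOSL2 intervals (3789 of 6284), so the share with FOSL2 was at the level of the whole series. The share without FOSL2 was not: an ATF without FOSL2 stood at 11.1% of the regions and at 29.6% of all intervals. The contrast between intervals with and without FOSL2 was not computed over all intervals. ATF2 was listed at 129 of the 177 regions with ATF7 (72.9%), against 65.9% of all ATF7 intervals (4863 of 7375). It was listed at 11.4% of the regions without ATF7, a share that was not computed over all intervals. In regions with a KLF, an ATF was listed at 83.1% with FOSL2 and at 25.4% without it.

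FOSL2 was listed mostly where JunB was. Within the regions without a KLF, FOSL2 was listed at 154 of 580 regions with both Jun proteins (26.6%, 23.0 to 30.3), at 108 of 622 with JunB without cJun (17.4%, 14.5 to 20.6) and at 7 of 209 with cJun without JunB (3.35%, 1.36 to 6.78). JunB without cJun exceeded cJun without JunB by 14.0 points (9.62 to 17.6). The order was the same with a KLF, at 41.8%, 32.8% and 5.39%, and in Jun regions without receptor or KLF, at 34.4%, 21.5% and 9.11%. An ATF was listed at 27.4% of the regions with both Jun proteins, at 22.8% with JunB alone and at 8.13% with cJun alone (17 of 209, 4.81 to 12.7). The difference between both Jun proteins and JunB alone, 4.58 points, had an interval that holds 0 (-0.318 to 9.48).

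Split by Jun, the FOSL2 share was 17.4% without a KLF and 32.8% with a KLF for JunB alone, a difference of -15.5 points, and 26.6% and 41.8% for both Jun proteins, a difference of -15.3 points, both with intervals below 0. For cJun alone, 3.35% stood against 5.39%, a difference of -2.04 points with an interval that holds 0 (-4.94 to 1.74). For an ATF with cJun alone, 8.13% stood against 14.4%, a difference of -6.24 points (-10.7 to -0.933). Whether the gap between regions without and with a KLF differed by Jun was not tested.

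By receptor, no difference beyond counting error was seen for FOSL2, or for ATF2 and ATF7 counted together, over all regions without a KLF. FOSL2 was listed at 17.8% of regions with RXR alone, 19.9% with VDR alone and 19.7% with both, and the intervals of all 3 differences hold 0, with bounds between -5.48 and 7.05 points. An ATF was listed at 22.4%, 20.8% and 24.5%, again with intervals that hold 0. ATF7 by itself was listed at 10.2% with RXR alone (7.79 to 13.2), 13.2% with VDR alone (10.2 to 16.7) and 14.6% with both (11.5 to 18.3). Differences by receptor were not computed for ATF7 by itself, nor within each kind of Jun. With a KLF, an ATF was listed at 35.5% of regions with VDR alone, 46.8% with RXR alone and 47.1% with both, the difference between VDR alone and RXR alone being -11.3 points (-16.6 to -5.81). Whether the receptor's bearing differed between regions without and with a KLF was not tested.

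**Figure D3:**
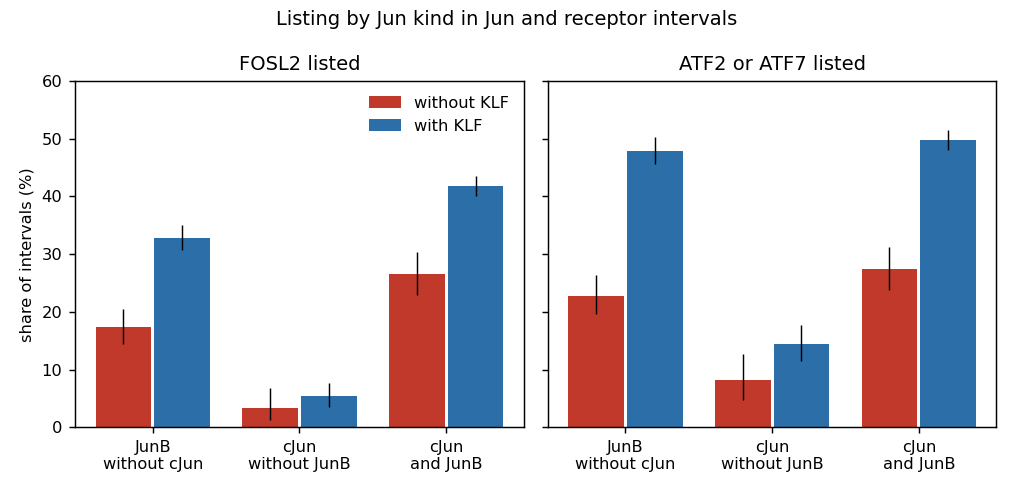
Bars give the share (%) of Jun and receptor intervals listed for FOSL2 (left) and for ATF2 or ATF7 (right) by which Jun was listed, without a KLF (red) and with a KLF (blue); lines are exact 95% intervals. Regions with cJun without JunB have the lowest shares in both panels, 3.35% and 5.39% for FOSL2.

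The rows of the 9 files follow 1 common order, so that an interval shared by several files keeps its place among the others. What the order stands for is not given in the labels, and the positions below are a description. Places were expressed as percentiles of the joined order, with 0 for the first rows; 1065 of the 1411 regions could be placed at exactly 1 level of that order. Regions without a KLF had a median place of 50.9 (quartiles 33.2 and 67.6), and those with a KLF 19.6 (8.20 and 35.7). The difference of 31.3 percentile points was 18.3 when weighted by the combinations of Jun and receptor, and 19.9 against regions with KLF5 without KLF4. Other regions without a KLF stood later still, with a median of 68.8 for a Jun without receptor and 58.5 for a receptor without Jun. Cut into 10 equal bins, the order held 2.34% of the regions without a KLF in bin 1, against 29.7% of those with a KLF. The median was later without a KLF on 20 of 20 chromosomes. It was also later inside each file of the 4 factors that define the regions, at 69.6 against 32.3 in the cJun list, 62.0 against 28.6 in the JunB list, 69.7 against 31.5 in the VDR list and 71.6 against 32.5 in the RXR list.

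Across the order, the part of Jun and receptor regions that lacked a KLF was larger in each bin than in the one before. It was 2.00% in bin 1 (33 of 1654, 1.38 to 2.79), 14.3% in bin 3 (147 of 1026), 44.0% in bin 6 (218 of 495) and 71.6% in bin 10 (48 of 67, 59.3 to 82.0). FOSL2 was listed at 21.2% of the regions without a KLF in bin 1, at 34.0% in bin 3 and at 4.17% in bin 10, against 45.2%, 34.5% and 5.26% with a KLF. An ATF was listed at 39.4%, 37.4% and 8.33% without a KLF and at 57.2%, 44.9% and 5.26% with a KLF in the same bins. FOSL2 was lower without a KLF in 10 of 10 bins and an ATF in 9 of 10, the exception being bin 10. For FOSL2 the gap in bin 3 was small, and the last bins rest on few regions. FOSL2 was listed at 8 of 100 regions without and 5 of 42 with a KLF in bin 9. In bin 10 it was listed at 2 of 48 and 1 of 19, and an ATF at 4 of 48 and 1 of 19. With the bins weighted as in the regions without a KLF, the FOSL2 difference came to -6.91 points (-9.64 to -4.18) and the ATF difference to -12.5 points (-15.5 to -9.54), smaller than the unweighted -16.5 and -23.4 points. Within the regions without a KLF, the bins of cJun without JunB were weighted as in the 622 regions with JunB without cJun. The difference in FOSL2 between JunB without cJun and cJun without JunB was then 11.8 points (6.76 to 16.8).

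**Figure D4:**
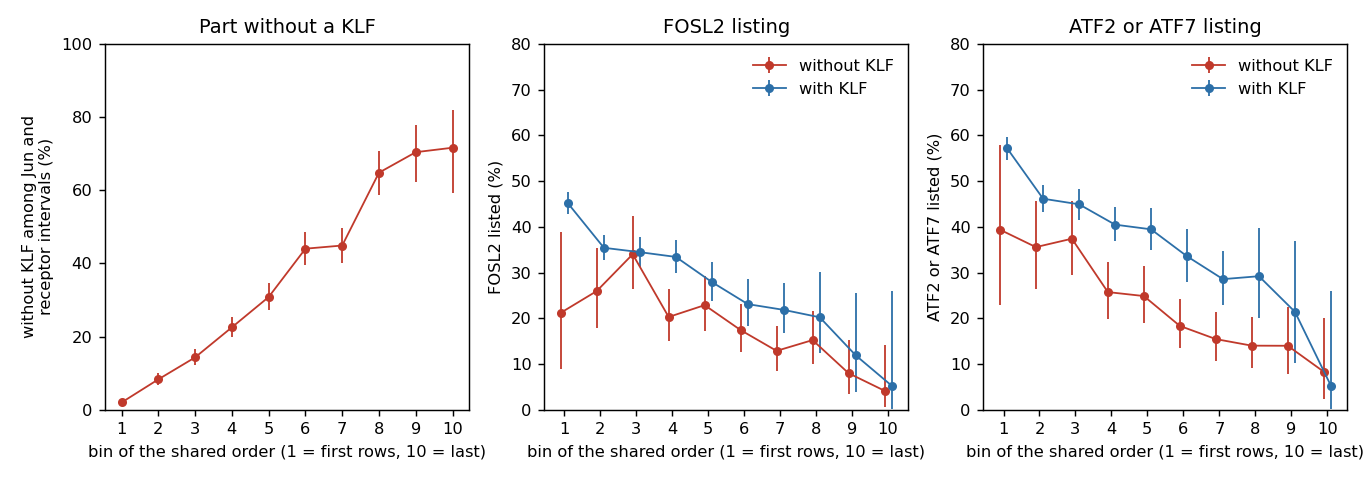
The x axis is the bin of the shared row order, 1 for the first rows and 10 for the last; the left panel shows the percentage of Jun and receptor intervals without a KLF, the others the percentage listed for FOSL2 and for ATF2 or ATF7, without a KLF (red) and with a KLF (blue), with exact 95% intervals. The part without a KLF is larger in each later bin and reaches 71.6%, and the red points lie below the blue ones in 10 of 10 bins for FOSL2 and 9 of 10 for the ATFs.

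More factors at a region went with an earlier place. The median place of regions without a KLF was 63.9 with 2 factors (438 regions), 51.4 with 3 (514), 42.3 with 4 (259), 40.5 with 5 (115), 30.4 with 6 (69) and 16.8 with all 7 (16). At equal numbers of factors, the regions without a KLF stood later by 2.42 percentile points with 3 factors, by 8.38 with 4, by 17.2 with 5 and by 13.3 with 6; with 7 factors the medians were 16.8 and 16.5. Regions with 5 or more of the 9 factors numbered 200 without a KLF (14.2%, against 16.2% of all intervals) and 4328 with a KLF (79.3%). A region without a KLF can hold at most 7 factors, which limits the first count by construction. By Jun, cJun alone stood latest, with a median of 64.5 (209 regions), followed by JunB alone with 51.8 and both with 44.0.

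The 16 regions listed for cJun, JunB, VDR, RXR, FOSL2, ATF2 and ATF7 without a KLF are the densest of the set. In the shared order the first was chr6:3980950-3981349, at percentile 3.57. Its nearest listed neighbour lay 27.3 kb away and its nearest KLF interval 32.5 kb away. The next 4 were chr8:18619059-18619458 at percentile 6.09, chr6:50204910-50205309 at 13.6, chr6:35223392-35223791 at 13.7 and chr1:91947754-91948153 at 13.8. All of these intervals are given 1-based in mm9. Their nearest KLF intervals lay 11.3, 4.59, 16.7 and 158 kb away, and none of the 5 overlapped a KLF interval.

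The 5 earliest regions in the order held between 2 and 7 factors. The first was chr2:77826738-77827137 at percentile 0.680, listed for cJun, VDR and RXR. It was followed by chr5:122997430-122997829 at 2.18, listed for JunB, VDR and RXR, and chr15:11300445-11300844 at 2.90, listed for JunB and VDR alone. The fourth was the 7-factor region on chromosome 6 named above. The fifth, chr15:96632725-96633124 at 3.59, was listed for cJun, RXR, ATF2 and ATF7.

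Neighbouring intervals were counted by the distance between midpoints. Another listed interval lay within 10 kb of 750 of the 1411 regions without a KLF (53.2%, 50.5 to 55.8), against 3705 of 5456 with a KLF (67.9%, 66.6 to 69.1) and 60.6% of all intervals. The difference was -14.8 points (-17.6 to -11.9), with the lower share without a KLF on 19 of 20 chromosomes. The exception was chromosome 18, at 55.8% without and 54.7% with a KLF. Weighted by the bins of the order the difference was -12.0 points (-15.5 to -8.59). The median distance to the nearest listed interval was 8.85 kb without a KLF and 4.41 kb with a KLF.

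A KLF interval elsewhere was less often near than for regions with a KLF. KLF4 or KLF5 was listed at another interval within 10 kb of 510 regions without a KLF (36.1%, 33.6 to 38.7), against 53.1% with a KLF and 43.0% of all intervals, a difference of -17.0 points (-19.8 to -14.1) that was negative on 20 of 20 chromosomes. Other regions without a KLF had like shares, 33.2% for a Jun without receptor and 38.2% for a receptor without Jun, and any listed interval lay within 10 kb of 49.9% and 54.9% of them. Within 1 kb, the shares were 6.31% (89 regions, 5.10 to 7.70), 14.6% and 11.1%. Among regions with any neighbour within 10 kb, a KLF neighbour was present at 510 of 750 without a KLF (68.0%), against 78.2% with a KLF and 70.9% of all intervals, a difference of -10.2 points (-13.9 to -6.73). An overlapping interval with KLF4 or KLF5 was found at 17 regions (1.20%, 0.703 to 1.92), against 2.77% with a KLF and 2.59% of all intervals. The missing KLF was thus listed at an overlapping interval in few regions without a KLF. No 2 intervals in the common set had midpoints closer than 201 bp, so an overlap at a smaller distance could not be found.

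Of these 17 regions, 4 overlapped an interval with both KLF4 and KLF5. In the shared order the first 3 of these were chr5:5648770-5649169, listed for cJun, JunB and VDR, chr10:107064259-107064658, listed for cJun, VDR and RXR, and chr2:164281504-164281903, listed for JunB and RXR. The midpoints of the KLF intervals lay 350, 367 and 284 bp away. With all 17 regions left out, the differences from regions with a KLF were unchanged at this rounding, -16.5 points for FOSL2 and -23.4 points for an ATF.

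**Figure D5:**
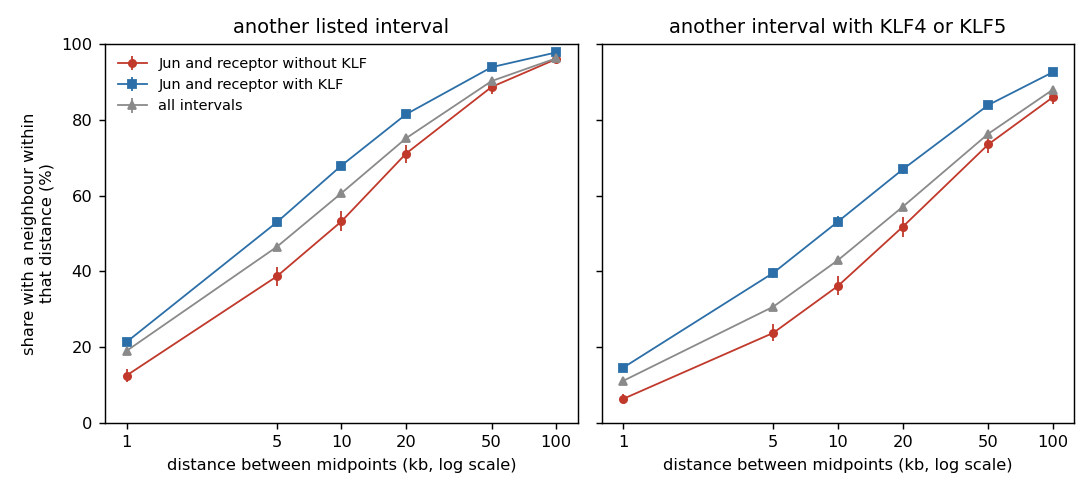
Points give the share (%) of intervals with another listed interval (left) or another interval with KLF4 or KLF5 (right) within a given midpoint distance (kb, log axis), with exact 95% intervals, for Jun and receptor regions without a KLF (red), with a KLF (blue) and all intervals (grey). Within 10 kb the red points are lowest in both panels, at 53.2% and 36.1%, and the red and blue lines draw together at larger distances.

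The receptor or Jun missing from a region was also sought at neighbouring intervals. VDR was listed within 1 kb of 24 of the 527 regions with RXR alone (4.55%, 2.94 to 6.70), against 8.81% with a KLF and 6.55% of all intervals. RXR was listed within 1 kb of 19 of the 447 with VDR alone (4.25%, 2.58 to 6.56), against 6.81% with a KLF and 7.23% of all intervals. cJun was listed within 1 kb of 13 of the 622 regions with JunB alone (2.09%, 1.12 to 3.55), against 4.88% with a KLF and 3.38% of all intervals. JunB was listed within 1 kb of 12 of the 209 with cJun alone (5.74%, 3.00 to 9.81), against 7.58% with a KLF and 5.43% of all intervals. Of these 4 exact intervals, that for RXR lies below the share of all intervals and the other 3 hold it.

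Nearness of these regions to one another was like the nearness of regions with a KLF to them. Another Jun and receptor region without a KLF lay within 10 kb of 74 of the 1411 (5.24%, 4.14 to 6.54), against 5.17% of those with a KLF. The share was 3.92% for Jun regions without receptor or KLF and 4.08% for all intervals, both just below that exact interval. These 74 formed 37 pairs, and no run of 3 or more was found. The first pair by position was chr1:181865428-181865827, listed for JunB, VDR and RXR at percentile 72.7, and chr1:181875182-181875581, listed for cJun, JunB, VDR, FOSL2, ATF2 and ATF7 at percentile 15.9. A region with 5 or more factors lay within 10 kb of 15.0% of the regions without a KLF (13.2 to 17.0), against 27.7% with a KLF and 19.7% of all intervals. Jun neighbours were near their background, at 29.8% without a KLF, 40.2% with a KLF and 30.1% of all intervals. VDR or RXR neighbours stood at 36.2%, 51.3% and 38.7% in the same order, FOSL2 neighbours at 13.7%, 22.2% and 20.7%, and ATF2 or ATF7 neighbours at 23.7%, 36.8% and 35.3%. A Jun and receptor region with a KLF lay within 10 kb of 16.4% of those without one, 28.2% of those with one and 18.6% of all intervals.

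All 20 chromosomes held regions without a KLF, between 36 on chromosome X and 116 on chromosome 2. Their part of the Jun and receptor regions was lowest on chromosome 11 (37 of 274, 13.5%, 9.69 to 18.1) and highest on chromosome X (36 of 119, 30.3%, 22.2 to 39.3) and chromosome 3 (103 of 378, 27.2%, 22.8 to 32.0), against 20.5% overall. These 3 were picked as the extremes among 20, and no test was made.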

How the data were processed

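The authors deposited 1 list of intervals per factor with 3 columns (chromosome, start and end), with no score, read number or control. The tools named per the submitters' processing notes are Bowtie, FastQC and HOMER, with the build mm9, and no version, role or threshold is stated there. Of 30 labelled samples, 21 were not analysed here. Identical intervals were matched across lists, and starts are printed 1-based. The joined order was the longest chain of rows before and after each interval, its middle level ranked over all intervals. Shares carry exact Clopper-Pearson intervals, differences Newcombe intervals, and odds ratios Robins-Breslow-Greenland intervals, all at 95%. Weighted differences gave the regions with a KLF the distribution of those without. The weighted difference between kinds of Jun gave cJun without JunB the bins of JunB without cJun. Regions were named by fixed rules: the first 5 with 7 factors, the first 5 in order, the first 3 overlapping an interval with both KLFs, and the longest run within 10 kb. The regions and comparisons were chosen with earlier results of these data known. Calculations were tested on simulated data. Python 3.11.15, numpy 2.4.6, scipy 1.17.1, pandas 2.3.3, statsmodels 0.14.6 and matplotlib 3.10.9 were used.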

Additional observations from a re-analysis of the deposited data

How the results depend on the processing

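No difference reversed in 57 alternatives, and of 78 values in all 48 stayed within the main 95% interval or within 1.5 times the count. The region count, 1411, became 3850 when absence from KLF4 alone was required, and 1322 to 1540 otherwise. The FOSL2 difference was -10.3 points against regions with KLF5 without KLF4, -21.4 against KLF4, -13.2 weighted by combination, -6.91 by bin of the order and -7.71 by both. The ATF difference was -16.4, -29.1, -18.7, -12.5 and -12.9 points under the same settings. The order difference (31.3 percentile points) was 29.5 in JunB regions, 25.3 with both receptors required, 19.9 against KLF5 without KLF4, 39.1 against KLF4 and 18.3 weighted by combination. It was 37.3, 33.4, 38.2 and 39.1 within the cJun, JunB, VDR and RXR lists. The neighbour difference (-14.8 points within 10 kb) was -17.9 without regions that had a KLF interval within 1 kb, -11.8 with both receptors required, -10.7 against KLF5 without KLF4, -18.0 against KLF4, -10.4 within 20 kb and -5.22 within 50 kb. The share of regions with a KLF interval within 1 kb (6.31%) was 2.27% for KLF4, and 23.7%, 36.1% and 51.7% within 5, 10 and 20 kb. The cause was not tested. Weighting by both, weighting of neighbours, order within single lists, the 10 kb KLF window, the receptor share under other rules, and KLF4 and KLF5 comparisons for order and neighbours were added after seeing the data. No paired analysis was possible because each factor had 1 library and no test between replicates was made. Depth is unknown, so non-listing cannot be told apart from weak signal.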
